A study of Mus musculus with 6 samples.

Results

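The guanylate-binding proteins were followed as the 8 genes Gbp2, Gbp3, Gbp4, Gbp5, Gbp6, Gbp7, Gbp8 and Gbp9, taken by symbol from the 28692 genes of the count tables. The 8 symbols had 9 rows, because Gbp6 was listed under 2 gene identifiers. One of these, ENSMUSG00000079362, held 0 UMIs (unique molecular identifiers, each standing for 1 captured transcript) in every library, so that all Gbp6 values came from ENSMUSG00000104713. The study immunised mice to produce experimental autoimmune encephalomyelitis (EAE), a model of multiple sclerosis in which T cells enter the central nervous system, and asked how microRNA-155 acts in the immune cells found there. Live CD45+ cells, that is leukocytes and microglia, were sorted and run as single-cell 3' libraries. The 6 groups were C57BL/6 mice, either wild type (WT) or miR-155KO, at day 0, day 13 or day 21 after induction, with 5 mice per group in the design text and 1 library per group. The knockout allele, sex and age of the mice, and whether the 5 mice were pooled, are not stated in the labels. The tissue is labelled brain, while the protocol also names spinal cord.

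Guanylate-binding proteins are large GTPases that are among the most strongly interferon-induced proteins of a cell. They assemble on the membranes of vacuoles that hold intracellular pathogens and on bacterial surfaces, where they help to break the vacuole and feed inflammasomes. In mice, interferon-gamma acts on them through its receptor, the kinases Jak1 and Jak2, and transcription factors such as Irf1, and activated microglia and macrophages are known to express them. The genes sit in 2 clusters of the GRCm38 (mm10) assembly in the GENCODE M21 annotation. Gbp5, Gbp7, Gbp3 and Gbp2 lie on the plus strand of chromosome 3 within 144 kb, from 142493978 to 142638008. Gbp8, Gbp9, Gbp4 and Gbp6 lie on the minus strand of chromosome 5 within 279.5 kb, from 105014150 to 105293698. The models of Gbp4, Gbp8 and Gbp9 overlap, but share only 60 to 61 exon bases, at most 1.77% of a gene's exon bases. Gbp6 shares 29% of its exon bases with the second, empty Gbp6 row (Gm43302 in the annotation), and Gbp7 shares 11.3% with Gm43802, so that the Gbp6 and Gbp7 counts could have lost reads to these models.

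Because the results below turn on genes that moved together, the promoter windows of the members are shown first. The RefSeq promoter table (GRCm38.p6, 300 bases around each start, 32851 windows) held the 4 members of the chromosome 3 cluster, with 2 windows for Gbp3. Each of the 4 genes had a window with 2 copies of GAAA separated by 2 bases of any kind, the core of the interferon-stimulated response element bound by Irf factors, on the strand opposite to the gene. Both strands were searched; 3.44% of all windows and 3.99% of the 27025 genes with a window held the letters. A second motif, TTCNNNGAA, the core of the gamma-activated site, was in 9.55% of genes. Gbp5 and Gbp7 had 2 matches each, and Gbp2 and Gbp3 had 0. The stretches of the first motif below run 5' to 3' on the plus strand, the strand of these genes, with the matched letters in capitals.
Gbp2, chr3:142620594-142620623, match 59 bases before the start: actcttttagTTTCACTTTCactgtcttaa
Gbp7, chr3:142530273-142530302, match 53 bases before the start: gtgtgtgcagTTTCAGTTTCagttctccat
Gbp3, chr3:142559989-142560018, 2 overlapping matches, the first 45 bases before the start: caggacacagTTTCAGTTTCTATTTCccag
Gbp5, chr3:142496759-142496788, match 165 bases before the start: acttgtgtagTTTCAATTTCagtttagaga
The other Gbp3 window held 0 matches. A match of letters is a description of the window, not a binding site.

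The deleted microRNA is shown beside them, with its seed (bases 2 to 8) in capitals and its RefSeq position on GRCm38.p6.
mmu-miR-155-5p, chr16:84714143-84714165, plus strand: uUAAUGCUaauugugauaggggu
The letters that pair with the seed, AGCATTA, occurred in the 3' untranslated region of 8.28% of the 21039 genes with such a region in GENCODE M21. Among the members, Gbp7 alone had a match, 1 site in a 3575-base region, shown in capitals.
Gbp7 site: ggcatcgcttctaacAGCATTAtttgggga
Gbp2, Gbp3, Gbp4, Gbp5, Gbp6, Gbp8 and Gbp9 had 0 matches in regions of 515 to 2511 bases. The shorter pairing followed by an A, GCATTAA, was in 7.91% of genes; Gbp9 had 1 such match, as did the empty Gbp6 model, and the other members had 0.

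The libraries held 6321841 to 24243660 UMIs, with a median of 3019 to 4368.5 UMIs per cell. Of 20030 barcodes, 20007 were kept, and 15469 (77.3%) were placed in 1 class by counting markers per cell; no Gbp gene was a marker. Barcodes passing more than 1 gate, which include doublets, were left out and made up 3.16% to 4.66% of the day 0 libraries, 22.1% and 24.7% of the WT and miR-155KO libraries of day 13, and 24.3% and 9.68% of those of day 21; 2.5% to 8.02% passed no gate. Of 19823 distinct barcode sequences, 207 occurred in more than 1 library. Mir155hg, the host transcript of the deleted microRNA, had 2 UMIs at day 0, 45 at day 13 and 59 at day 21 in WT, and 0, 0 and 1 in miR-155KO. The microglia-like class had 1358, 909 and 505 cells in WT and 1219, 434 and 1722 in miR-155KO on days 0, 13 and 21, with a median of 9 to 11 of the 12 microglia markers per cell; 2 to 74 cells per library stood exactly at the 6 markers required and 3 to 28 ungated cells stood 1 below. Levels are given as UMIs per 1000000 UMIs of the class in the library (CPM), and class totals ran from 1250577 to 5309198 UMIs for microglia-like cells. Intervals are 95% intervals for counting error alone, since every group was 1 library. UMIs of a 3' library count transcripts and are not divided by length, and a comparison of levels between genes also depends on how well each 3' end was captured. Day and the number that opens each sample title, whose meaning is not given, cannot be told apart. P-values measure only the spread between these libraries.

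In microglia-like cells all 8 genes were far higher at day 13 than at day 0, in both genotypes. Gbp2, the highest member in 3 of the 4 libraries of days 13 and 21 (Gbp7 led in miR-155KO at day 21), was at 9.51 CPM in the WT and 6.97 CPM in the miR-155KO library of day 0 (44 and 29 UMIs), and at 594 and 873 CPM at day 13. The increase was 62.4-fold in WT (interval 46.3 to 86.3) and 125-fold in miR-155KO (86.8 to 188). Gbp7, a member linked to the NADPH oxidase of phagocytes, was the highest at day 0, at 46.7 CPM in WT and 42.8 CPM in miR-155KO, and reached 333 and 353 CPM. Gbp3 went from 18.4 and 13 CPM to 136 and 146 CPM, and Gbp9 from 8.65 and 9.14 CPM to 45.9 and 58.5 CPM. The patterns thus stood side by side: Gbp3, Gbp7 and Gbp9 had a clear level at day 0 and were 5.31-fold to 11.2-fold higher at day 13, while Gbp4 and Gbp8 were almost silent first. Gbp4 had 5 UMIs in WT at day 0 and 0 in miR-155KO, and was at 83.3 and 120 CPM at day 13, which is 77.1-fold higher in WT and, against the floor of 3 UMIs in the library at 0, at least 167-fold higher in miR-155KO. Gbp8 had 5 and 4 UMIs at day 0 and was at 61.2 and 72.3 CPM, 56.7-fold and 75.2-fold higher. Gbp6 had 3 and 0 UMIs at day 0 and was at 18 and 24.8 CPM. Gbp5, which promotes assembly of the Nlrp3 inflammasome, went from 4.11 and 6.01 CPM to 53.7 and 51.6 CPM. All 16 pairs of values were ordered the same way, with no overlap between the days.

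In a fit over the 6 libraries with genotype as a term (edgeR, quasi-likelihood test, Benjamini-Hochberg adjustment over 10393 genes), 8 of 8 members were called higher at day 13 than at day 0, where 16.8% of all genes were. The log2 fold changes ran from 2.74 (SE 0.31, adjusted p = 8.11e-05) for Gbp9 to 6.82 (SE 0.58, adjusted p = 1.67e-05) for Gbp2, leaving aside Gbp4 (7.63, SE 0.78), whose day 0 level rested on 5 UMIs. Gbp4, Gbp6 and Gbp8 passed the filter on low counts only through later days, so a higher level there was built into their being tested; the 5 that passed it through the day 0 libraries alone (Gbp2, Gbp3, Gbp5, Gbp7 and Gbp9) were all called. Leaving out each library in turn kept the count at 8. At day 21, 8 of 8 members were again called higher than at day 0, where 9.4% of all genes were, with log2 fold changes from 1.53 (SE 0.34, adjusted p = 0.013) for Gbp9 to 4.72 (SE 0.57, adjusted p = 0.000265) for Gbp2 and 4.98 (SE 1.06, adjusted p = 0.0104) for Gbp4. This second count fell to 0 without the WT library of day 0 and to 3 without the miR-155KO library of day 0. The 2 comparisons share the day 0 libraries.

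**Figure D1:**
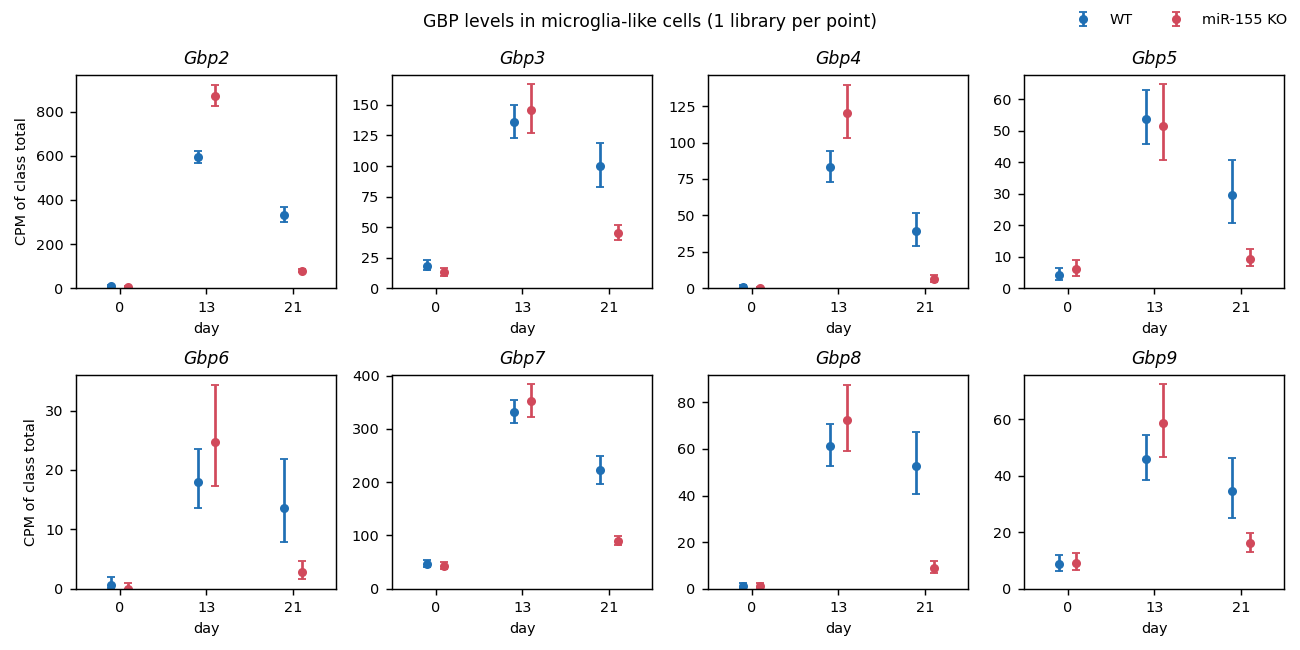
Levels of the 8 genes in microglia-like cells, in CPM of the class total (linear vertical axes, different in each panel), at days 0, 13 and 21 (horizontal axis) for WT (blue) and miR-155KO (red); each point is 1 library and bars are 95% Poisson intervals. Gbp2 stood at 594 CPM in WT and 873 CPM in miR-155KO at day 13, and at 333 and 78.7 CPM at day 21, and in all 8 panels the miR-155KO point of day 21 lies below the WT point.

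In microglia-like cells all 8 levels were lower at day 21 than at day 13 in both genotypes, and the miR-155KO library stood further below. Gbp2 was at 333 CPM in WT and 78.7 CPM in miR-155KO at day 21, which is 0.561 times its day 13 level in WT (interval 0.503 to 0.625) and 0.0902 times in miR-155KO (0.0805 to 0.101). Gbp4 stood at 0.47 times its day 13 level in WT and 0.0547 times in miR-155KO, and Gbp8 at 0.862 times in WT, with an interval of 0.64 to 1.15, and 0.122 times in miR-155KO. How far the miR-155KO library of day 21 stood above its own day 0 value differed between members: Gbp5 was 1.57-fold higher, with an interval that included 1 (0.951 to 2.64), Gbp9 1.75-fold (1.18 to 2.64), Gbp7 2.1-fold (1.76 to 2.5), Gbp3 3.5-fold (2.59 to 4.79) and Gbp2 11.3-fold (7.75 to 17.1). The WT library of day 21 was above its own day 0 value for each of the 8 members, from 3.98-fold for Gbp9 to 48.8-fold for Gbp8. With the 2 genotypes as the only replicates of a day, 2 of 8 members were called lower at day 21 than at day 13 by edgeR, where 0.693% of all genes were. These were Gbp4 (log2 -2.65, SE 0.52, adjusted p = 0.0445) and Gbp5 (log2 -1.72, SE 0.35, adjusted p = 0.0486); Gbp2 had a log2 fold change of -2.10 (SE 0.47, adjusted p = 0.0631). The count was 0 without either day 0 library, 8 without the WT library of day 13 or of day 21, and 0 with DESeq2.

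Set against WT on the same day, the miR-155KO microglia-like cells had similar or higher GBP levels at day 13 and lower levels at day 21. The summed level of the 8 genes, called the GBP sum below, was 90.1 CPM in WT and 78.9 CPM in miR-155KO at day 0, 1324 and 1699 CPM at day 13, and 825 and 257.5 CPM at day 21. The ratio of miR-155KO to WT for the GBP sum was 0.875 (interval 0.755 to 1.01) at day 0, 1.28 (1.22 to 1.35) at day 13 and 0.312 (0.288 to 0.339) at day 21. At day 13 the higher value in miR-155KO came mostly from Gbp2, at 1.47 times WT (1.37 to 1.58), and Gbp4, at 1.45 times WT (1.18 to 1.76). Gbp3 at 1.08, Gbp5 at 0.961 and Gbp7 at 1.06 times WT had intervals that included 1. None of the 8 passed 1.5-fold in either direction at day 13, where 4.56% of 7516 measured genes (10 CPM or more in either library) were that much higher and 4.16% that much lower in miR-155KO. Monocyte/macrophage markers in these cells summed to 133 CPM in WT and 200 CPM in miR-155KO, with 0 and 1 of the 14 markers at 0; without the cells that held one, chosen after the data were seen, the ratio of the GBP sum was 1.36 and 2 members passed 1.5-fold.

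At day 21, 8 of 8 members were 1.5-fold or more lower in the miR-155KO microglia-like cells, where 5.93% of 7549 measured genes were. Gbp4, Gbp5, Gbp6 and Gbp8 reached 10 CPM through the WT library alone, so a lower miR-155KO level was partly built into their being counted. Gbp2, Gbp3, Gbp7 and Gbp9 reached 10 CPM in both libraries. The ratio was lowest for Gbp4 and Gbp8, at 0.168 each (intervals 0.106 to 0.265 and 0.113 to 0.248), followed by Gbp6 at 0.208 (0.0966 to 0.442) and Gbp2 at 0.236 (0.206 to 0.271). Gbp5 was at 0.318, Gbp7 at 0.403, Gbp3 at 0.454 and Gbp9 at 0.466 (0.319 to 0.689). Gbp4, Gbp6 and Gbp8, which had at most 5 UMIs per library at day 0, thus had the lowest ratios. The median log2 ratio of the 8 genes was -1.74, beside 0.08 over all measured genes. These are 2 libraries, so the difference has no replicate check. Monocyte/macrophage markers in the microglia-like cells summed to 134 CPM in the WT and 77 CPM in the miR-155KO library of day 21, T cell markers to 178 and 25.2 CPM, neutrophil markers to 1269.8 and 643 CPM, and microglia markers to 19266 and 27436 CPM. The part of the neutrophil markers in the result was not tested. The ratio of the GBP sum was 0.302 without cells that held a monocyte/macrophage marker UMI (chosen after the data were seen) and 0.294 without cells that held a T, NK or B marker UMI.

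**Figure D2:**
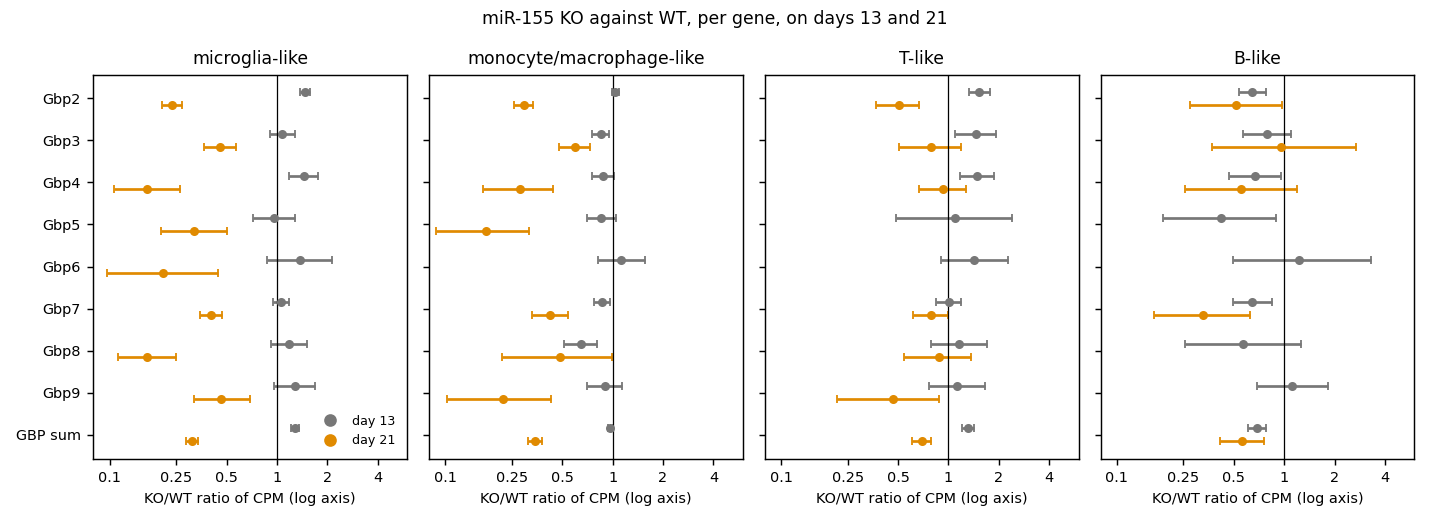
Ratio of the miR-155KO to the WT level (log axis) for each gene and for the GBP sum, at day 13 (grey) and day 21 (orange), in 4 cell classes; bars are 95% counting intervals, the line marks equal levels, and genes with fewer than 4 UMIs in either library are not drawn. In microglia-like cells the ratio for the GBP sum was 1.28 at day 13 and 0.312 at day 21.

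The change was also seen in the share of microglia-like cells in which a GBP transcript was found. After thinning each cell to 1500 UMIs, the share with at least 1 UMI of any of the 8 genes (GBP sum) was 13.5% in WT and 10.1% in miR-155KO at day 0, 72.3% and 84.6% at day 13, and 53.7% and 25.5% at day 21. Without thinning the shares were 23.6%, 22.1%, 88%, 94.7%, 64.2% and 41% in the same order, at median depths of 2149 to 3207 UMIs per cell. Cells with 3 or more thinned GBP UMIs made up 0.221% and 0% at day 0, 28.5% and 44.9% at day 13, and 15.8% and 2.32% at day 21. A UMI of Gbp2 was found in 1.33% and 1.15%, 46.4% and 65.2%, and 26.7% and 7.79% of thinned cells. So both the share of cells with any GBP transcript and the share with several were lower in the miR-155KO library of day 21. Free RNA can place GBP UMIs in any cell, so the classes with the lowest GBP sums are given beside these shares, although part of their UMIs can be their own. In neutrophil-like cells, lowest at days 0 and 21, the thinned shares were 2.52% and 2.74%, 24.8% and 28.1%, and 8.26% and 2.99%. In plasmacytoid dendritic-like cells, lowest at day 13, they were 21.8% in WT and 16.8% in miR-155KO on that day. Each was below the microglia-like share of the same library.

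Monocyte/macrophage-like cells, which enter the tissue from blood during EAE, had the highest GBP sum of any class at day 13. It was 181 and 164 CPM at day 0 in WT and miR-155KO, 1924 and 1860 CPM at day 13, and 986 and 338 CPM at day 21. Gbp2 made up most of it, with 36.6 and 34.6 CPM at day 0, 1188 and 1233 CPM at day 13, and 602 and 177 CPM at day 21. Gbp3, the highest member here at day 0, was at 68.5 and 80 CPM, then 203 and 172 CPM, then 123 and 73.3 CPM. Gbp7 was at 47.8 and 25.9 CPM, 218 and 189 CPM, and 122 and 51.6 CPM. Gbp4, Gbp6 and Gbp8 had 0 UMIs in the WT library of day 0 and 1 or 2 UMIs in the miR-155KO library, where the class held only 85 and 50 cells. By edgeR over 9121 genes, the 4 members that passed the filter on low counts through the day 0 libraries alone (Gbp2, Gbp3, Gbp7 and Gbp9) were called higher at day 13 than at day 0, where 11.2% of all genes were, with Gbp2 at a log2 fold change of 5.45 (SE 0.47, adjusted p = 5.69e-05), Gbp7 at 2.76 (SE 0.30, adjusted p = 0.000213) and Gbp3 at 1.61 (SE 0.23, adjusted p = 0.00106). Gbp4, Gbp5, Gbp6 and Gbp8 were called too, but were tested only because of their later levels. The count over the 8 was 4 without the WT library of day 0. At day 21, 3 of 8 were called higher than at day 0 (Gbp2, Gbp4 and Gbp7), where 2.84% of all genes were; this count was 0 without the WT library of day 0, 1 without the miR-155KO library of day 0, and 5 or 6 without either day 13 library or the miR-155KO library of day 21.

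All 8 members fell between days 13 and 21 in monocyte/macrophage-like cells, where 4.03% of all genes did, in both genotypes. Gbp2, Gbp3, Gbp7 and Gbp9 passed the filter on low counts through the day 0 libraries alone. Gbp4, Gbp5, Gbp6 and Gbp8 passed it only through later days, so their fall from day 13 may be partly built into their being tested. Gbp8 had a log2 fold change of -2.36 (SE 0.27, edgeR adjusted p = 0.00106) and Gbp2 of -1.89 (SE 0.35, edgeR adjusted p = 0.0101), and the smallest was -1.01 for Gbp3 (SE 0.20, edgeR adjusted p = 0.0126). Within genotypes the GBP sum stood at 0.512 times its day 13 level in WT (interval 0.491 to 0.535) and 0.182 times in miR-155KO (0.166 to 0.199). At day 13 the miR-155KO to WT ratio of the GBP sum was 0.967 (0.933 to 1), with Gbp2 at 1.04 (0.992 to 1.08) and only Gbp8, at 0.643 (0.51 to 0.808), past 1.5-fold, where 2.8% of measured genes were that much lower. At day 21 the ratio of the GBP sum was 0.343 (0.312 to 0.376), and all 7 members with 10 CPM or more were 1.5-fold or more lower in miR-155KO, where 8.98% of measured genes were. Gbp2, Gbp3 and Gbp7 passed 10 CPM in both libraries, and a member could also be counted through WT alone. Gbp5 had the lowest ratio, 0.174 (0.0879 to 0.314), then Gbp9 at 0.221, Gbp4 at 0.278 and Gbp2 at 0.294, and Gbp3 the highest at 0.596 (0.479 to 0.735). Gbp6, under 10 CPM in both libraries, had 16 UMIs in WT and 3 in miR-155KO, a ratio of 0.373 (0.0696 to 1.3). T cell markers in these cells summed to 66 CPM in the WT and 12.1 CPM in the miR-155KO library of day 21 (0 and 2 of 12 at 0), neutrophil markers to 1223 and 691 CPM (1 of 12 at 0 in each), microglia markers to 319 and 452 CPM and monocyte/macrophage markers to 7234 and 7047 CPM; the part of the neutrophil and microglia markers in the result was not tested. The ratio of the GBP sum was 0.356 without cells that held a T, NK or B marker UMI. The order of members differed from that in microglia-like cells, where Gbp8 was among the lowest and here stood at 0.485.

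Neutrophil-like cells had the lowest GBP sum of the measured classes at days 0 and 21, and Gbp2 and Gbp7 made up most of it. The GBP sum was 15.9 and 15.6 CPM in WT and miR-155KO at day 0, 238 and 211 CPM at day 13, and 63.8 and 15.9 CPM at day 21. Gbp2 was at 2.98 and 6.24 CPM in WT and miR-155KO at day 0 (3 and 2 UMIs), 140 and 128 CPM at day 13, and 33.7 and 5.91 CPM at day 21. Gbp7 was at 10.9 and 9.36 CPM, 62.2 and 54 CPM, and 18.2 and 8.18 CPM. The other 6 members had at most 23 UMIs in any library. By edgeR, Gbp2 (log2 5.09, SE 0.55, adjusted p = 4.38e-07) and Gbp7 (log2 2.33, SE 0.38, adjusted p = 0.000118) were called higher at day 13 than at day 0, where 7.5% of all genes were. Only Gbp7 passed the filter on low counts through the day 0 libraries alone. Gbp2 passed it through later days, as did Gbp4. Gbp4 had 0 UMIs in both day 0 libraries, and its call is therefore not counted. The fall of Gbp2 from day 13 may also be partly built into its being tested. Gbp2 and Gbp7 fell between days 13 and 21 (log2 -2.60 and -1.91, edgeR adjusted p = 3.01e-06 and 4.75e-05), where 2.81% of genes did, and Gbp2 alone was called higher at day 21 than at day 0 (adjusted p = 0.0481), where 1.77% were. That call was lost without the WT library of day 0 or of day 21 and with DESeq2, and the count of members lower at day 21 than at day 13 was 5 and 4 without the WT and the miR-155KO library of day 0. At day 21 both members with 10 CPM or more were lower in miR-155KO, Gbp2 at 0.175 times WT (0.0902 to 0.313) and Gbp7 at 0.45 times (0.249 to 0.778), where 11.6% of measured genes were 1.5-fold or more lower. Both reached 10 CPM in WT alone, so a lower miR-155KO level was partly built into their being counted.

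Conventional dendritic-like cells, which prime T cells, were numerous enough at days 13 and 21 only. Gbp2 was at 330 and 312 CPM in WT and miR-155KO at day 13 and at 184 and 109 CPM at day 21, Gbp3 at 60.1 and 73.5 CPM and then 32.3 and 31.4 CPM, and Gbp7 at 68.1 and 55.8 CPM and then 41.2 and 53.6 CPM. Gbp6 was nearly missing, with 1 UMI over the 4 libraries. The miR-155KO to WT ratio of the GBP sum was 0.95 (0.826 to 1.09) at day 13 and 0.764 (0.608 to 0.956) at day 21, and at day 21 it was 0.593 for Gbp2 (0.428 to 0.815) and 1.02 for the other 7 genes together (0.728 to 1.42). Outside Gbp2 the interval thus included equal levels. With classes taken from Leiden clusters, the ratio of the GBP sum was 1.15 at day 13 and 0.565 at day 21. Plasmacytoid dendritic-like cells, the main makers of type I interferon, could be compared at day 13 only, with a GBP sum of 152 CPM in WT and 145 CPM in miR-155KO, a ratio of 0.949 (0.683 to 1.33) that was 1.66 with classes from Leiden clusters. Gbp4 led there in miR-155KO, at 22.1 CPM in WT (9 UMIs) and 56.7 CPM in miR-155KO (38 UMIs), a ratio of 2.56 (1.22 to 6.02), while Gbp2 was at 29.5 and 11.9 CPM, 0.404 times WT with an interval of 0.143 to 1.08.

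T-like cells, like monocyte/macrophage-like cells, already had a GBP level at day 0. The GBP sum was 228 CPM in WT and 296 CPM in miR-155KO at day 0, 664 and 868 CPM at day 13, and 490 and 339 CPM at day 21. Gbp7 was at 66.6 and 97.5 CPM at day 0, 197 and 198 CPM at day 13, and 142 and 112 CPM at day 21. Gbp2 was at 36.5 and 66.2 CPM, 208 and 319 CPM, and 140 and 70.4 CPM, and Gbp4 at 34.4 and 38.3 CPM, 86.8 and 129 CPM, and 69.7 and 64.9 CPM. Gbp8, almost silent in day 0 microglia-like cells, was at 25.8 and 38.3 CPM in day 0 T-like cells, 37.5 and 43.3 CPM at day 13, and 37.7 and 33.1 CPM at day 21. By edgeR over 7466 genes, 4 of 8 members were called higher at day 13 than at day 0, where 8.18% of all genes were: Gbp2 (log2 2.22, SE 0.29, adjusted p = 5.34e-08), Gbp3 (2.12, SE 0.38, adjusted p = 3.49e-05), Gbp4 (1.33, SE 0.28, adjusted p = 0.000482) and Gbp7 (1.11, SE 0.22, adjusted p = 0.000153). These 4 passed the filter on low counts through the day 0 libraries alone. Gbp5 and Gbp6 passed it only through later days, so a difference from those days may be partly built into their being tested. Gbp8 (log2 0.17, SE 0.34) and Gbp9 (0.23, SE 0.35) were not called. At day 21, Gbp2 and Gbp3 were called higher than at day 0, where 5.02% were, and Gbp2 (log2 -1.07, adjusted p = 0.000511) and Gbp6 (-1.34, adjusted p = 0.0179) lower than at day 13, where 1.41% were. The first of these counts was 0 without either WT library of days 0 and 21 and 4 without the miR-155KO library of day 21. The second was 0 without either miR-155KO library of days 13 and 21, 4 without the WT library of day 13 and 6 without the WT library of day 21, and both were 0 with DESeq2.

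In T-like cells the miR-155KO level was higher than WT at day 13 and lower at day 21. The ratio of the GBP sum was 1.31 (1.2 to 1.42) at day 13 and 0.693 (0.605 to 0.792) at day 21, and for Gbp2 1.53 (1.32 to 1.78) and 0.504 (0.37 to 0.672). At day 13 only Gbp2 of the 8 was 1.5-fold or more higher in miR-155KO, where 6.49% of measured genes were, with Gbp3 at 1.46 and Gbp4 at 1.49. At day 21, 4 of 8 were 1.5-fold or more lower (Gbp2, Gbp5, Gbp6 and Gbp9), where 8.33% were. Gbp2 passed 10 CPM in both libraries. Gbp5 and Gbp6 reached it in WT alone, so a lower miR-155KO level was partly built into their being counted. Gbp4 (0.93, interval 0.668 to 1.27) and Gbp8 (0.877, 0.545 to 1.36) were close to WT, unlike in microglia-like cells, where these were the members with the lowest ratios; the difference between the classes was not tested. In the CD4 T-like subset the ratio of the GBP sum was 1.63 (1.41 to 1.89) at day 13, with 5 of 8 members (Gbp2 to Gbp6) 1.5-fold or more higher where 15.3% of measured genes were, and 0.879 (0.694 to 1.1) at day 21. A member counted at day 13 could have reached 10 CPM through miR-155KO alone. CD4 T-like Gbp2 went from 2.04 times WT (1.6 to 2.6) at day 13 to 0.574 times (0.324 to 0.959) at day 21. In the CD8 T-like subset of day 13, Gbp4 was at 71.8 CPM in WT and 152 CPM in miR-155KO, 2.12-fold higher (1.37 to 3.3), and Gbp7 at 205 and 159 CPM. Of 7 measured members, 2 (Gbp4 and Gbp6) were 1.5-fold or more higher there. Among all measured genes of that subset 14.8% were that much higher and 23% lower. Myeloid transcripts in the T-like cells moved as well: the monocyte/macrophage markers summed to 1336 and 930 CPM at day 13 and 1119 and 679 CPM at day 21 in WT and miR-155KO, CD8 markers to 673 and 223 CPM and 813 and 333 CPM, and NK markers to 913 and 117 CPM and 556 and 155 CPM. Conventional dendritic markers, at 64.2 and 100 CPM, and border-associated macrophage markers, at 20.8 and 64.6 CPM, were higher in miR-155KO at day 13. So were B cell markers (31.5 and 51 CPM) and plasmacytoid dendritic markers (89.8 and 105 CPM). Neutrophil markers (375 and 226 CPM) and microglia markers (520 and 460 CPM) were lower. Of 6 chemokine and antigen presentation genes, Cd74, Ciita, H2-Aa and H2-Ab1 were 1.5-fold or more higher in miR-155KO at day 13 and Cxcl9 lower. Among measured genes 6.49% were that much higher and 8.32% lower. The part of these markers and genes in the T-like values was not tested. NK-like cells, measured in 3 libraries, had a GBP sum of 333 and 281 CPM at day 0 in WT and miR-155KO and 288 CPM in WT at day 21, with Gbp4 at 86.4, 105 and 59.9 CPM.

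In B-like cells Gbp9 led at day 0 and Gbp2 and Gbp7 led at day 13. At day 0 Gbp9 was at 38.3 CPM in WT and 48.9 CPM in miR-155KO and made up 44.8% and 47.6% of the class's GBP UMIs, on only 29 and 21 UMIs in all. Gbp2 was at 5.9 and 9.79 CPM at day 0, 280 and 180 CPM at day 13, and 60.6 and 31.4 CPM at day 21, and Gbp7 at 5.9 and 4.89 CPM, 136 and 87.9 CPM, and 73.2 and 23.9 CPM. By edgeR over 5634 genes, 4 of the 5 members tested were called higher at day 13 than at day 0, where 7.99% of all genes were: Gbp2 (log2 5.39, SE 0.41, adjusted p = 6.7e-07), Gbp7 (4.82, SE 0.51, adjusted p = 3.02e-05), Gbp3 (2.70, SE 0.42, adjusted p = 0.000501) and Gbp4 (2.65, SE 0.42, adjusted p = 0.000539). These 4 passed the filter on low counts only through later days, with 2 UMIs of Gbp2 in each day 0 library, so their being tested already required a higher level there. Gbp9, which passed it at day 0, had a log2 fold change of 0.13 (SE 0.38, edgeR adjusted p = 0.881). For Gbp3, tested only through later days, a fall from day 13 may also be partly built in. Gbp2 and Gbp7 were called higher at day 21 than at day 0, where 4.22% were, a count that was 0 without the WT library of day 0. Gbp2 (log2 -2.38, edgeR adjusted p = 0.000294) and Gbp3 (-1.90, edgeR adjusted p = 0.0155) fell between days 13 and 21, where 0.231% did; the count was 5 without either day 0 library and 1 without the miR-155KO library of day 13 or of day 21. Here the miR-155KO level was below WT on both disease days: the ratio of the GBP sum was 1.2 (0.652 to 2.18) at day 0, 0.689 (0.612 to 0.776) at day 13 and 0.559 (0.412 to 0.76) at day 21. At day 13, 4 of 8 members were 1.5-fold or more lower (Gbp2, Gbp5, Gbp7 and Gbp8), where 10.6% of measured genes were. At day 21 this held for 5 of 7 (Gbp2, Gbp4, Gbp6, Gbp7 and Gbp8), where 14.1% were, while Gbp9 was at 5.05 CPM in WT (2 UMIs) and 20.9 CPM in miR-155KO (14 UMIs), a ratio of 4.14 (0.952 to 37.6). On both days Gbp2 and Gbp7 passed 10 CPM in both libraries. Other members could be counted through WT alone, which partly builds in a lower miR-155KO level. Monocyte/macrophage markers in the B-like cells summed to 156 CPM in WT and 381 CPM in miR-155KO at day 13 (2 and 1 of 14 at 0) and to 288 and 64.3 CPM at day 21 (6 and 8 of 14 at 0), T cell markers to 46.2 and 29 CPM and then 129 and 22.4 CPM, and neutrophil markers to 348 and 196 CPM and then 581 and 451 CPM. Their part in the B-like values was not tested.

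**Figure D3:**
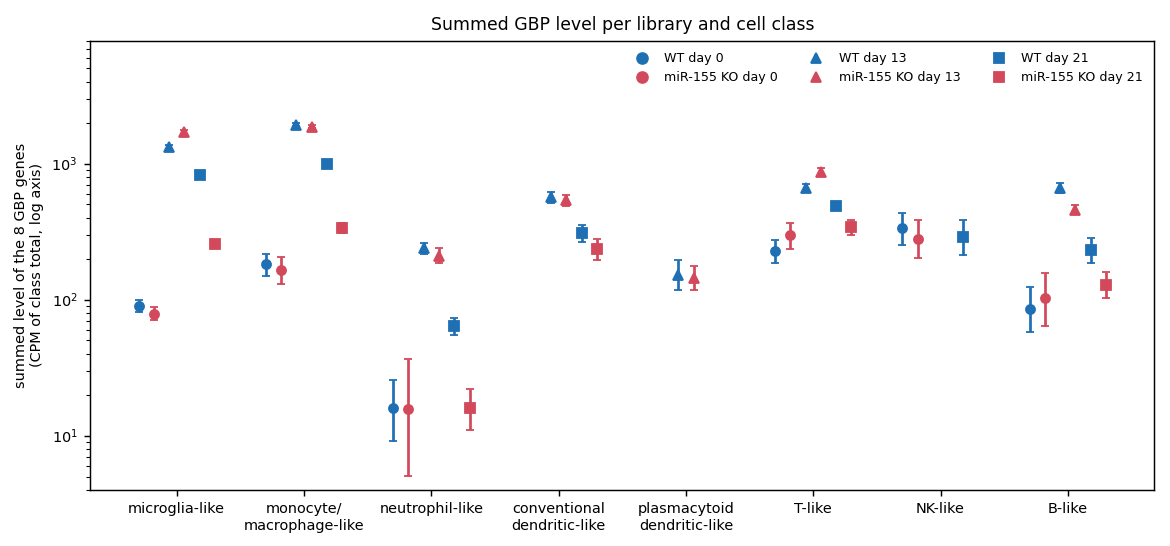
The GBP sum (CPM of the class total, log axis) in each cell class with 50 or more cells in the library, for WT (blue) and miR-155KO (red) at day 0 (circles), day 13 (triangles) and day 21 (squares); each point is 1 library and bars are 95% Poisson intervals. Monocyte/macrophage-like cells of day 13 stood highest, at 1924 and 1860 CPM, and neutrophil-like cells of day 0 lowest, near 16 CPM.

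With the libraries of the 3 days standing in as replicates of each genotype, and day as a term, no member was called between miR-155KO and WT in any class by edgeR at an adjusted p under 0.05. For conventional dendritic-like cells, too few at day 0, the fit used the libraries of days 13 and 21 only. In microglia-like cells 0 of 8 members were called and 1 had an unadjusted p under 0.05, beside 0.00962% of all genes called; Gbp2 had a log2 fold change of -0.69 (SE 0.42, adjusted p = 1). In monocyte/macrophage-like cells 0 of 8 were called and 6 had an unadjusted p under 0.05, beside 0.143% of genes called, with Gbp7 at -0.72 (SE 0.21, adjusted p = 0.306) and Gbp2 at -0.76 (SE 0.32, adjusted p = 0.457). The counts were 0 of 3 tested in neutrophil-like cells (0.06% of genes called), 0 of 5 in conventional dendritic-like cells (0%), 0 of 8 in T-like cells (0.951%) and 0 of 5 in B-like cells (0%), with 1, 0, 0 and 3 members at an unadjusted p under 0.05; over all genes, 256 in conventional dendritic-like and 226 in B-like cells had one. DESeq2 also called 0 members in each class. This fit treats the genotype difference as the same on every day, and the ratios above differed between days. When 1 library of a day is left out, the day term takes up the other library of that day. The genotype estimates without either library of day 13 thus rest on the same libraries of days 0 and 21. Those without either library of day 21 rest on the same libraries of days 0 and 13. Their likeness is fixed by the design and is not a second check. Without either library of day 13, the same 6 members of the microglia-like class were called lower in miR-155KO (Gbp2, Gbp3, Gbp4, Gbp6, Gbp7 and Gbp8), with Gbp2 at -1.74 (adjusted p = 3.19e-05) without the WT and -1.76 (adjusted p = 9.3e-07) without the miR-155KO library. Likewise 5 members were called lower in monocyte/macrophage-like cells (Gbp2, Gbp4, Gbp5, Gbp7 and Gbp9) and Gbp2 in neutrophil-like cells. Without either library of day 21, Gbp2 was called higher in miR-155KO in T-like cells (log2 0.69 and 0.70, adjusted p = 0.0146 and 0.0118).

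Single members were compared between classes, which differ in a large share of all genes. Over the 24 class sums of days 13 and 21, with library as a term (edgeR, 9844 genes), monocyte/macrophage-like cells had more Gbp2 (log2 0.99, SE 0.23, adjusted p = 0.000646), Gbp3 (0.59, SE 0.15, adjusted p = 0.00199) and Gbp5 (0.45, SE 0.19, adjusted p = 0.0451) than microglia-like cells, where 28% of all genes were higher, and less Gbp7 (-0.64, SE 0.20, adjusted p = 0.0094), where 31.5% were lower. These counts, 3 of 8 higher and 1 of 8 lower, stood near and below the shares over all genes, so only the values of the single members are given. The Gbp7 call was lost without the WT library of day 21. T-like cells had more Gbp4 than microglia-like cells (0.72, SE 0.30, adjusted p = 0.0392), where 27.8% of genes were higher, a call lost without either day 21 library, and less Gbp2, Gbp3, Gbp5 and Gbp7, where 32.6% were lower; Gbp5 differed most (-1.99, SE 0.25, adjusted p = 1.25e-07). All 8 members were lower in neutrophil-like than in microglia-like cells, from -1.81 for Gbp2 to -3.89 for Gbp3, where 39.4% of genes were lower. Conventional dendritic-like cells were lower in 7 members, all but Gbp5, where 28.5% were, and B-like cells in 5 (Gbp2, Gbp3, Gbp5, Gbp7 and Gbp8), where 29% were.

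The same fit compared each class with T-like cells. Monocyte/macrophage-like cells had more Gbp2 (log2 2.25, SE 0.25, edgeR adjusted p = 2.94e-08), Gbp3 (1.52, SE 0.17) and Gbp5 (2.44, SE 0.24), where 28% of genes were higher, and the other 5 were not called. Conventional dendritic-like cells had more Gbp5 (1.67, SE 0.29, edgeR adjusted p = 4.19e-05), where 19.9% of genes were higher, and less Gbp4, Gbp6, Gbp7, Gbp8 and Gbp9, where 18% were lower; without the miR-155KO library of day 13 that count was 3. Neutrophil-like cells were lower in 7 members, all but Gbp2, where 32.9% of genes were, and B-like cells in Gbp6, Gbp7 and Gbp8, where 18.3% were, a count that was 0 without the miR-155KO library of day 13. The counts of members higher, 3 in the monocyte/macrophage-like and 1 in the conventional dendritic-like class, stood near and below the shares over all genes. For these only the values of the single members are given. Gbp5 was above its T-like level in the monocyte/macrophage-like and conventional dendritic-like classes and below it in the neutrophil-like class.

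**Figure D4:**
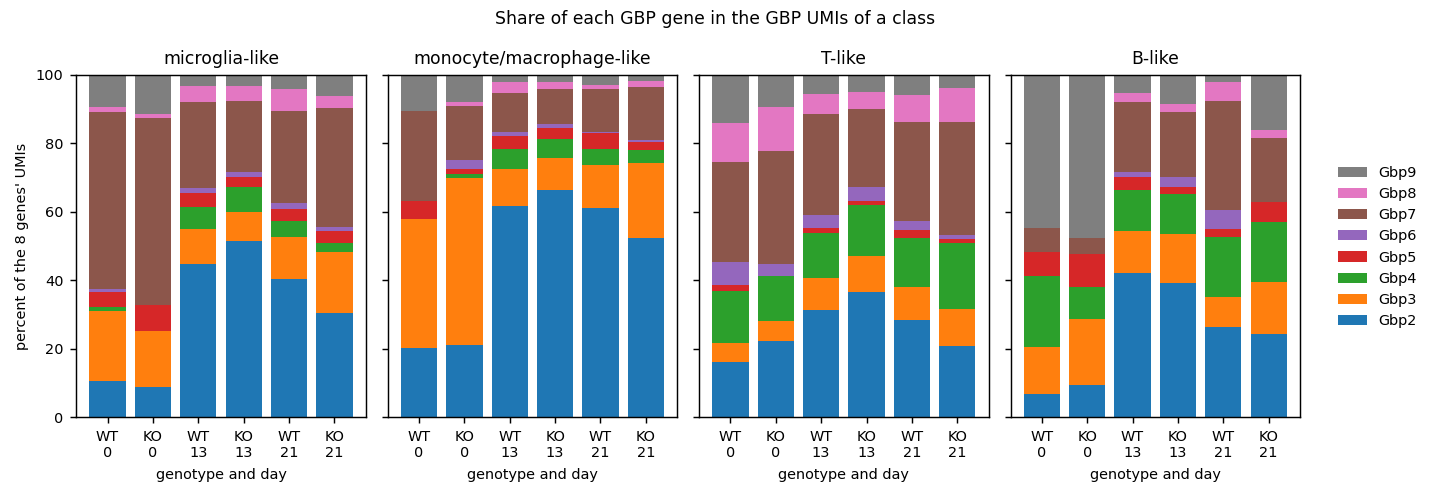
Percent of the GBP UMIs of a class that belonged to each of the 8 genes, per library (genotype and day on the horizontal axis), in 4 classes. In microglia-like cells Gbp2 went from 10.6% and 8.84% at day 0 to 44.8% and 51.4% at day 13, and Gbp7 was the largest part at day 0.

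The make-up of the family's transcripts differed between days. In microglia-like cells Gbp7 made up 51.8% of the GBP UMIs in WT and 54.3% in miR-155KO at day 0 and Gbp2 10.6% and 8.84%, whereas Gbp2 made up 44.8% and 51.4% at day 13 and 40.4% and 30.6% at day 21. In monocyte/macrophage-like cells Gbp2 went from 20.2% and 21.1% to 61.8% and 66.3% and then 61% and 52.5%, and Gbp3 was the largest part at day 0, with 37.7% and 48.7%. In T-like cells Gbp2 went from 16% and 22.4% to 31.3% and 36.7% and then 28.5% and 20.7%, and Gbp7 held 22.8% to 32.9% in every library. Leaving Gbp2 out, the rest of the family in microglia-like cells (GBP sum without Gbp2) was at 80.6 and 71.9 CPM, 731 and 826 CPM, and 492 and 179 CPM, with a miR-155KO to WT ratio of 1.13 (1.05 to 1.21) at day 13 and 0.363 (0.328 to 0.403) at day 21.

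Upstream of the family, the ligand gene shared part of the family's pattern, and the receptor genes had other patterns. Ifng, the interferon-gamma gene, had 91 UMIs at day 0, 420 at day 13 and 353 at day 21 in WT, and 55, 168 and 48 in miR-155KO, which is 10.6, 20.7 and 14.6 CPM of the whole library in WT and 8.71, 9.3 and 3.1 CPM in miR-155KO. Per T-like cell transcript pool it was at 34.4, 44 and 40.2 CPM in WT and 34.8, 39.1 and 35.9 CPM in miR-155KO, and microglia-like cells held at most 4 Ifng UMIs in a library. T- and NK-like cells together held 67, 88 and 168 of the WT Ifng UMIs and 49, 56 and 31 of those in miR-155KO, so at day 13 most Ifng UMIs lay outside these classes. The part outside includes barcodes that passed more than 1 gate, 22.1% and 24.7% of the WT and miR-155KO libraries of day 13. Such barcodes can hold T or NK cells, and their Ifng UMIs were not counted separately. Ifng was lower in the whole miR-155KO libraries at days 13 and 21, and the T-like values cover only a part of its transcripts. At day 13 the GBP sum of the whole library was 1029 CPM in WT and 1132 CPM in miR-155KO, and at day 21 it was 537 and 236.7 CPM. Ifngr1, the ligand-binding receptor chain, was at 1360 and 1333 CPM in day 0 microglia-like cells, 733 and 560 CPM at day 13, and 644.5 and 893 CPM at day 21, and Ifngr2 at 292 and 298, 223 and 201, and 250.3 and 239.96 CPM. By edgeR, Ifngr1 fell between days 0 and 13 (log2 -0.83, SE 0.19, adjusted p = 0.00705), opposite in direction to the family.

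Among the regulators and other interferon targets of the microglia-like cells, most were higher at day 13 as well. By edgeR, 2 of 4 negative regulators were called higher at day 13 than at day 0 (Socs1 and Usp18) and Socs3 lower, where 16.8% of all genes were higher and 13.7% lower. The transcription factor gene Irf1 was at 50.4 and 51.4 CPM in WT and miR-155KO at day 0, at 199 and 191 CPM at day 13, and at 114 and 62.3 CPM at day 21. All 7 tested immunity-related GTPases, a second family of interferon-induced GTPases that acts on the same vacuoles, were called higher, as were 8 of 8 type I interferon response genes and 6 of 6 genes of chemokines and antigen presentation. Iigp1 of the former went from 1.3 and 0.24 CPM to 325.5 and 420.7 CPM and then 178 and 35.4 CPM. It stood below the low-count filter of 2.82 CPM in both day 0 libraries, so a higher later level was built into its being tested. How many other genes of these lists passed the filter only through later days was not counted. Of the inflammasome and pyroptosis genes that act downstream of the family, 6 of 8 were called higher and Nlrp3 lower (log2 -0.53, SE 0.18, adjusted p = 0.0413).

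At day 21 the lists differed in how far miR-155KO microglia-like cells lay below WT, with 2 libraries and no test. The number of measured genes 1.5-fold or more lower was 6 of 6 for chemokines and presentation (median log2 ratio -1.64), 7 of 8 for the type I response (-1.09), 4 of 6 for immunity-related GTPases (-0.82) and 2 of 4 for negative regulators (-0.48; Socs1 and Usp18), where 5.93% of all measured genes were. It was 1 of 8 for inflammasome and pyroptosis genes (-0.26; Il1b) and 0 for the interferon-gamma and type I receptor chains (0.20 and 0.15), beside a median of -1.74 for the 8 members. Socs1, the inhibitor of the receptor kinases, was at 41.6 CPM in WT and 14.5 CPM in miR-155KO. Genes of these lists could be counted through WT alone, which partly builds in a lower miR-155KO level. At day 13 no gene of these lists was 1.5-fold or more higher in miR-155KO and Il1b alone was lower.

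Across the 39 sums of a library and class, the genes of 5227 ranked whose level followed the GBP sum most closely were Igtp, an immunity-related GTPase (Pearson r = 0.895), Parp14 (0.88), Fam26f (0.875), Tap1, a subunit of the peptide transporter of MHC class I (0.874), and Irf1 (0.854). Among the members, pairs ranged from r = 0.393 for Gbp5 with Gbp6 to 0.876 for Gbp4 with Gbp8 and 0.869 for Gbp7 with Gbp8. Sums of 1 library share its depth and its free RNA, and the coefficients are given as a description.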

How the data were processed

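Count tables of UMIs per gene and cell, 1 per library, were used as deposited by the authors; per the submitters' processing notes they were made with Cell Ranger 2.0.2 on mm10, while annotation and counting settings were not given in the sources used here. Barcodes with 200 genes or more and at most 10% mitochondrial UMIs were kept. Classes were gated by the number of marker genes with a UMI (3 to 6 required), with thresholds set with the data in hand, and no doublet caller was run. UMIs were summed per library and class (50 cells or more) and given as CPM. Ratios within a day carry exact 95% counting intervals. Genes counted within a day needed 10 CPM in either library. Some entered through the higher library alone, which builds in part of a difference. Fits used edgeR 4.0.16 (TMM, filterByExpr, quasi-likelihood, Benjamini-Hochberg at 0.05) in R 4.3.3, tested on simulated data, with DESeq2 1.42.0 as an alternative; classes were also taken from Leiden clusters (scanpy 1.11.5). The 8 members are always named, with genes of fixed lists (interferon-gamma ligand and receptor, type I receptor, negative regulators, immunity-related GTPases, inflammasome, type I response, chemokine and presentation) and the 5 genes of most similar pattern. Irf1 was the 1 gene described from a further list of signalling genes, whose other results are not reported here. The members and lists were chosen with earlier results of these data known. No gene is called changed between 2 single libraries; a 1.5-fold difference is a description.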

Additional observations from a re-analysis of the deposited data

Results flagged for a closer look

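The miR-155KO to WT ratio lay above 1 at day 13 and below 1 at day 21, with counting intervals that excluded 1 on both days, in 6 cases. In microglia-like cells these were Gbp2 (1.47 and 0.236), Gbp4 (1.45 and 0.168) and the GBP sum (1.28 and 0.312). In T-like cells they were Gbp2 (1.53 and 0.504) and the GBP sum (1.31 and 0.693), and in the CD4 T-like subset Gbp2 (2.04 and 0.574). With 1 library per group the difference between the days was not tested. The ratios of Gbp2 in T-like and CD4 T-like cells come from overlapping cells and are not independent of each other.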

How the results depend on the processing

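No result changed direction in a call. Of 473 values recomputed for the main results, 380 stayed near the main value and 93 moved. Near meant within 1.5-fold for a count, and within the main counting interval for a ratio, level or share. A moved value could keep its direction, as did the microglia-like day 21 ratio (0.312, and 0.348 with 1 more marker required). Whether a ratio crossed 1 was not part of this sorting. Of 1839 member fold changes, 1632 kept their call or lack of one, 104 lost and 103 gained a call. DESeq2 gave 0 members lower at day 21 than at day 13 in microglia-like and T-like and 1 in B-like cells, and 0 higher at day 21 than at day 0 in neutrophil-like and T-like cells. Without the filter on low counts, miR-155KO against WT over days called 2 members in microglia-like and 5 in monocyte/macrophage-like cells, day 21 against 13 called 8 lower in microglia-like and 5 in B-like cells, day 21 against 0 called 5 higher in monocyte/macrophage-like cells, and 2 were lower in monocyte/macrophage-like than microglia-like and 2 higher in conventional dendritic-like than T-like cells. A gate with 1 more marker gave 0 lower at day 21 than at day 13 in microglia-like and T-like cells, 1 higher at day 21 than at day 0 in T-like cells and 1 higher in miR-155KO in day 13 microglia-like cells. Its GBP sum was 757 CPM in microglia-like WT day 21, 126 (miR-155KO day 0), 1759 and 1810 (WT and miR-155KO day 13) and 948 (WT day 21) in monocyte/macrophage-like, 271 and 80.3 (WT days 13 and 21) in neutrophil-like and 714 (WT day 13) in T-like cells, with ratios of 0.348 (microglia-like, day 21) and 1.03 (monocyte/macrophage-like, day 13). Leiden classes gave 6 lower at day 21 than at day 13 in microglia-like and 1 in T-like cells, 0 and 1 higher at day 21 than at day 0 in neutrophil-like and T-like cells, 2 and 2 in those class comparisons, 1 member higher in day 13 miR-155KO microglia-like cells, and ratios of 1.17 (neutrophil-like, day 13), 1.15 and 0.565 (conventional dendritic-like, days 13 and 21) and 1.66 (plasmacytoid dendritic-like). Without lymphoid-marker cells the day 13 ratios were 1.37 (3 members higher) in microglia-like and 1.02 in monocyte/macrophage-like cells, and without monocyte-marker cells, chosen after seeing the data, 1.36 (2 members). TMM scaling gave 2 members higher in T-like and 2 lower in B-like cells at day 13 and shifted neutrophil-like day 21 ratios by 0.14 on the log2 scale. With no minimum level, 8 members were lower in neutrophil-like cells at day 21. Unthinned shares of microglia-like cells with a GBP UMI were 23.6%, 22.1%, 88%, 94.7%, 64.2% and 41%. The cause of these changes was not tested.

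Leaving out each library in turn gave, for miR-155KO against WT over days, 0 to 6 members called in microglia-like, 0 to 5 in monocyte/macrophage-like, 0 to 1 in neutrophil-like and T-like and 0 to 0 in B-like cells. For day 21 against 0 the range was 0 to 8, 0 to 6, 0 to 1, 0 to 4 and 0 to 2 in microglia-like, monocyte/macrophage-like, neutrophil-like, T-like and B-like cells, and for day 21 against 13 it was 0 to 8, 6 to 8, 2 to 5, 0 to 6 and 1 to 5. For day 13 against 0 it was 8 to 8, 4 to 8, 2 to 3, 3 to 5 and 4 to 5. Between classes it was 0 to 2 for members lower in monocyte/macrophage-like than microglia-like cells, 0 to 1 for those higher in T-like than microglia-like cells, 3 to 5 for those lower in conventional dendritic-like and 0 to 3 in B-like than T-like cells. Within a class, the lone library of a left-out day is taken up by its day term and adds nothing to the genotype estimate. In comparisons of days it is assumed to vary like the others. The conventional dendritic-like fit without a library could not be fitted, having no residual degrees of freedom, and the stricter gate left too few of these cells. The fit of miR-155KO against WT with day as a term pairs the 2 libraries that share a day and an opening title number. No further paired analysis was possible because each group held 1 library.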

Other observations

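Gbp2b, a further member of the chromosome 3 cluster that was not among the 8 genes, had 0 UMIs in both day 0 libraries, 80 in WT and 74 in miR-155KO at day 13, and 83 and 5 at day 21. In the CD8 T-like subset of day 13, Ifng had 27 UMIs in WT and 1 in miR-155KO, beside a Gbp4 level of 71.8 and 152 CPM. There 14.8% of measured genes were 1.5-fold or more higher in miR-155KO and 23% lower. In the CD4 T-like subset of day 21, Gbp4 was at 58.4 CPM in WT and 104.9 CPM in miR-155KO, 1.8 times WT (95% counting interval 1.05 to 3), while Gbp2 was at 135 and 77.6 CPM. There 17.2% of measured genes were 1.5-fold or more higher in miR-155KO and 20% lower.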
